A study of Mus musculus with 36 samples.

Results

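The mitochondrial ribosomal proteins, the protein parts of the ribosome inside mitochondria, were followed in mouse T cells of 3 Malt1 genotypes before and during stimulation. Members were all probes whose gene symbol starts with Mrpl (large subunit) or Mrps (small subunit) followed by a digit. The rule found 76 genes and 110 probes among 16593 genes and 25697 probes on the array. Probes with a detection p-value below 0.01 on 4 or more arrays were kept, which left 69 of the 76 genes among the 7585 genes tested, 42 named Mrpl and 27 named Mrps. The other 7, Mrpl19, Mrpl21, Mrpl32, Mrpl39, Mrpl45, Mrps14 and Mrps36, stayed below that limit and have no value below. Of the 69 genes, 61 were detected on all 36 arrays.

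The groups were cells labelled Malt1PM/- (PM), with a paracaspase mutation on 1 Malt1 allele and the other deleted, Malt1-/- (KO), with both deleted, and Malt1+/- (het), with 1 deleted. Each genotype was measured without stimulation (0 h) and after 1 h and 4 h of stimulation, with 4 arrays per group and 36 in all. All groups carry the same strain label, B6.C-Tg(CMV-cre)1Cgn/J, a mouse line with Cre recombinase under a CMV promoter, and no age is given. The labels describe both total T cells, from which B220+ and CD11b+ cells were removed, and CD4+ T cells, and both PMA with ionomycin and antibodies to CD3 and CD28, without saying which were used for the arrays. The labels carry the tags E3, E4, E5 and E6, the same 4 in every group, which are written here as replicates 1 to 4. The series' design speaks of 3 biological replicates. Neither says that they are separate mice, so p-values measure the spread between these samples. The 9 T cell defining genes on the array, Cd3e and Zap70 among them, were all tested, and their summed linear signal was 14600 to 25500 per array over all groups.

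Mitochondrial ribosomes translate the few proteins that the mitochondrial DNA encodes, all of them core subunits of the respiratory chain and the ATP synthase. Every protein of these ribosomes is encoded in the nucleus, made in the cytosol and imported, so that a new mitochondrial ribosome needs many nuclear genes at once. Some members have a counterpart in bacterial ribosomes and others are found in mitochondria only. Resting T cells keep few mitochondria, and activation through the antigen receptor is known to start mitochondrial growth. MALT1 links that receptor to NF-kB, both by holding signalling proteins together and by cleaving some proteins with its paracaspase domain.

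Promoter sequence was at hand for 67 of the 76 members, as windows of 300 bases from RefSeq on build GRCm38.p6. Each runs from 250 bases before to 50 after an annotated start, and some members have more than 1 window. Mrpl58 itself is listed from base 115403724 of chromosome 11, which lies before the start that its window was built on. Windows of 5 members are printed because the results below turn on them. They are Mrps6 and Mrpl12, the 2 largest rises at 4 h in het cells, Mrpl37, whose level at 4 h was lowest in KO cells, and Mrpl34 and Mrpl58, the 2 largest falls at 4 h in het cells. They lie at chr16:92058086-92058385 (plus strand), chr11:120484387-120484686 (plus), chr4:107066817-107067116 (minus), chr8:71464676-71464975 (plus) and chr11:115403502-115403801 (plus), in that order. Each is written 5′ to 3′ on the strand of its gene, and capitals mark a match to 1 of the 4 motifs described after the sequences.
Mrps6: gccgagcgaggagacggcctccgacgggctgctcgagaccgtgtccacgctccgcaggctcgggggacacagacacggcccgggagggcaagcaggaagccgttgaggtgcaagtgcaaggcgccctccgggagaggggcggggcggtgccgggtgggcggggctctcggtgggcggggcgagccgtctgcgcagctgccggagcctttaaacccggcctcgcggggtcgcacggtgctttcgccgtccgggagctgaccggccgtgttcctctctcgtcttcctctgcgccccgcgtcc
Mrpl12: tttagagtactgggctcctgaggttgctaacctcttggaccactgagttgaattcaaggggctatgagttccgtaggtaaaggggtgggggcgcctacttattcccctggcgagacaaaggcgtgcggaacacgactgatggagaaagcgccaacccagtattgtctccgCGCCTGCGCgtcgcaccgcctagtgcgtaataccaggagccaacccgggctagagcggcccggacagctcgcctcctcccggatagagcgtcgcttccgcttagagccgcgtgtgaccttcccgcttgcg
Mrpl37: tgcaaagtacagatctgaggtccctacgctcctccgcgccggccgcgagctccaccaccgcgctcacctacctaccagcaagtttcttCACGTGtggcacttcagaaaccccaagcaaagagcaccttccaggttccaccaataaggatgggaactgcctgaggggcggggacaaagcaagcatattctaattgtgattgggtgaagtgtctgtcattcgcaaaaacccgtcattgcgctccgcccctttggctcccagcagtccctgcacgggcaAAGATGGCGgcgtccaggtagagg
Mrpl34: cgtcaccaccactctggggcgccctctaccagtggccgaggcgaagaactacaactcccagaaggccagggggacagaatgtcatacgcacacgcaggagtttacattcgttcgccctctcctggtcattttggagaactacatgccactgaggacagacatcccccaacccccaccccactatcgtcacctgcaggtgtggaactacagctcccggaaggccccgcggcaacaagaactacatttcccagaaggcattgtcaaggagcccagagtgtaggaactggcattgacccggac
Mrpl58: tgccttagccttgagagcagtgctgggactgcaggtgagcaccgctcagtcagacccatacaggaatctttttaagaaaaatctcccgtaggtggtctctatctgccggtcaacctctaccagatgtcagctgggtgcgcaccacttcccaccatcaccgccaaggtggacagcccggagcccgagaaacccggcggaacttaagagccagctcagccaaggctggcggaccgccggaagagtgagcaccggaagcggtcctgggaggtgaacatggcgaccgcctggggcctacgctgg

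Both strands were searched for 4 short motifs of factors known for nuclear genes of mitochondrial proteins, CACGTG (the E-box of MYC and MAX), GCGCANGCG (a core of NRF1 sites), CCGGAAGT (an ETS and GABP site) and AAGATGGCG (a YY1 site). A gene with several windows was counted where any of them matched. The NRF1 core was found for 15 of 67 members (22.4%), against 7.03% of all 27025 genes with a window. The ETS and GABP site was found for 12 members (17.9%), against 4.31% of all these genes. The YY1 site was found for 8 (11.9%), against 1.64%, and the E-box for 5 (7.46%), against 8.09%. In the printed windows, that of Mrpl12 has an NRF1 core whose first base lies 80 bases before the start. The window of Mrpl37 has an E-box that begins 162 bases before the start and a YY1 site that begins at base 27 after it. Those of Mrps6, Mrpl34 and Mrpl58 have 0 matches to these letters. The 8 members with the YY1 letters were Mrpl35, Mrpl36, Mrpl37, Mrpl42, Mrps11, Mrps18a, Mrps24 and Mrps27. Set against the calls, all 8 were among the 33 members with a window that rose at 4 h in het cells. Of the 4 that fell and the 24 that were not called, 0 had these letters. The NRF1 core was found for 4 of those 33 members, 0 of the 4 and 8 of the 24. For the ETS and GABP site these were 5, 1 and 6 members, and for the E-box 4, 0 and 1. The overlap with the calls is a description, and the motifs were chosen with earlier results of these data known.

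Signals are given as background-corrected, quantile-normalized log2 intensities, with an offset of 16 that compresses the changes of dim probes, and a difference of 1 is a doubling. Levels of different probes are not set against each other. A gene was called where limma's moderated test over all 36 arrays gave a Benjamini-Hochberg adjusted p under 0.05 over all 7585 genes, and errors of differences are standard errors. The heat map of all 69 genes shows most rows bluer at 1 h than at 0 h, and the upper rows red at 4 h.

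**Figure D1:**
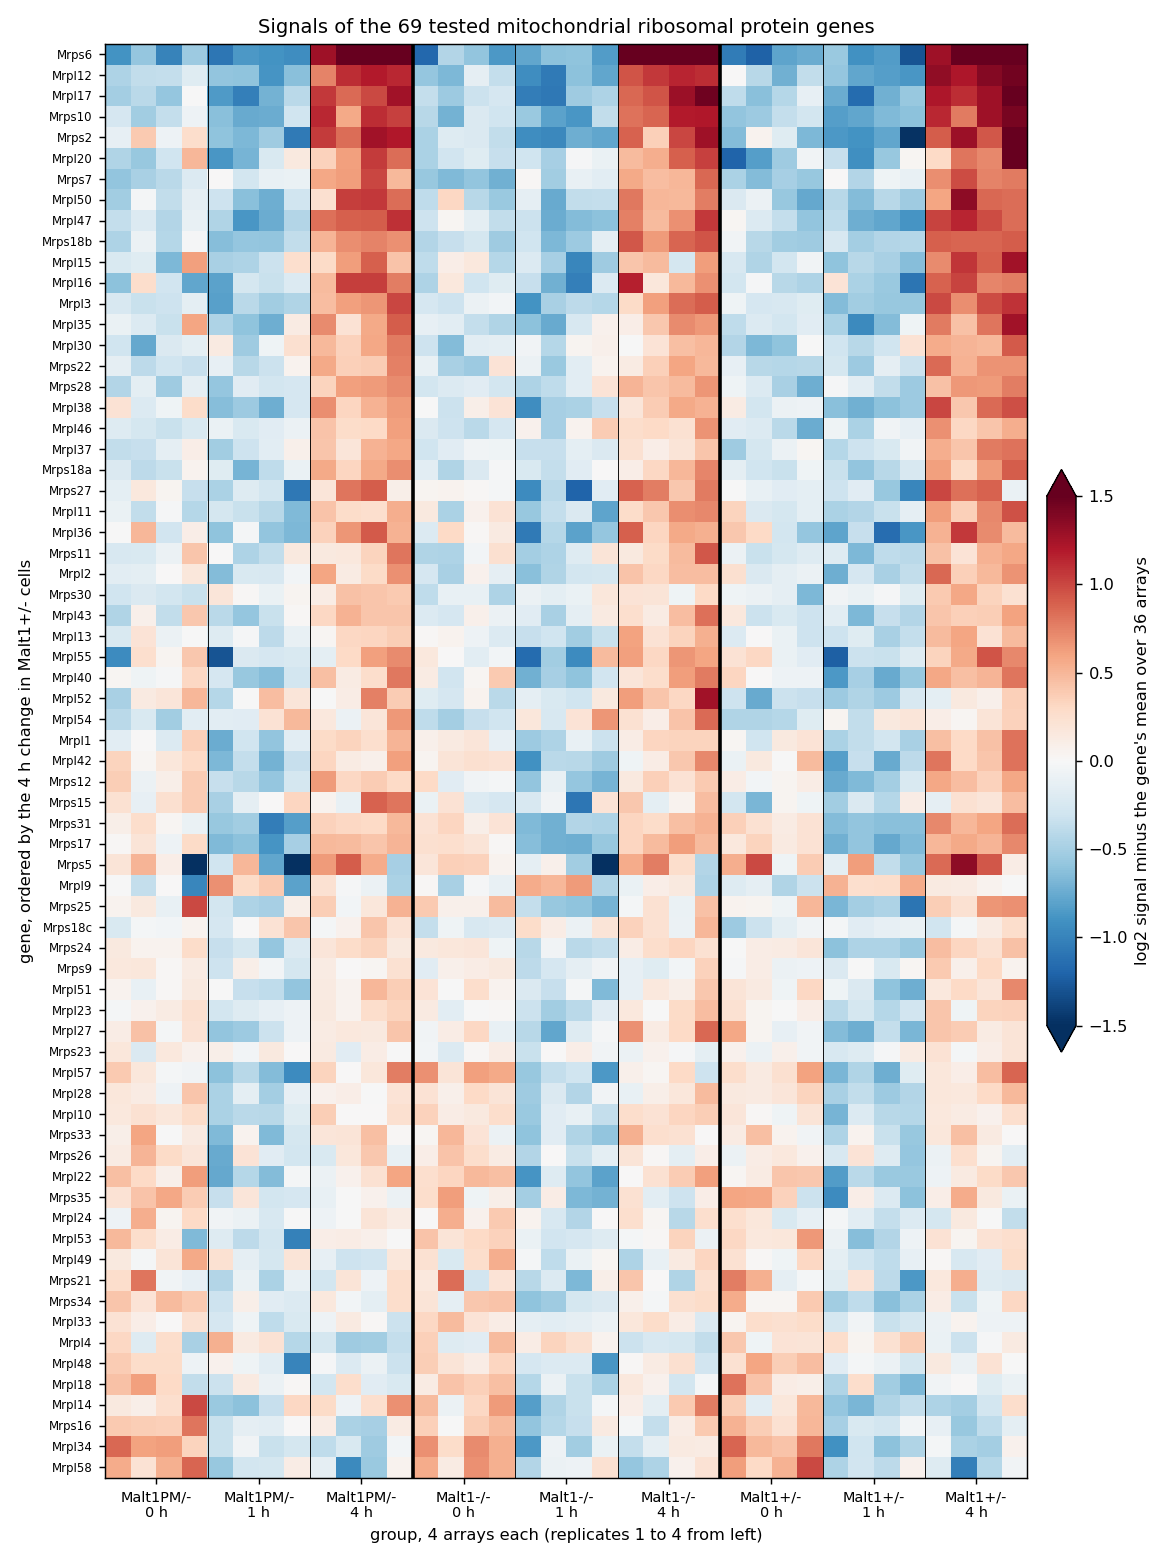
Each row is 1 of the 69 tested mitochondrial ribosomal protein genes, ordered by its 4 h change in Malt1+/- cells, and each column 1 of 36 arrays, 4 per group. Colour gives the log2 signal minus the gene's mean over all arrays, cut off at 1.5 in either direction. Mrps6 at the top is red on all 12 arrays of 4 h and blue on the others, and Mrpl58 and Mrpl34 at the bottom are red at 0 h.

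After 1 h, more mitochondrial ribosomal protein genes were called lower than higher against unstimulated cells. In PM cells 26 of 69 members fell and 0 rose, against backgrounds of 13.1% of all genes falling and 10.3% rising. In KO cells 34 fell and 2 rose (15.7% and 12.4% of all genes), and in het cells 33 fell and 2 rose (15.5% and 12.7%). The median change over the members was -0.35 in PM, -0.41 in KO and -0.41 in het cells, and that of all genes was -0.08, -0.07 and -0.07. The members' median on each single array, minus the 0 h mean of its genotype, was between -0.43 and -0.21 in PM, between -0.43 and -0.25 in KO and between -0.41 and -0.33 in het cells. All 12 arrays of 1 h thus had a negative median. Each 1 h comparison uses the same 0 h arrays as the 4 h comparison of its genotype.

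The 1 h counts depend on the scaling of the arrays. When the arrays were given a common median and no quantile step, 13 members fell in PM, 14 in KO and 6 in het cells, and 0 rose, beside 5.41%, 7.54% and 3.85% of all genes falling and 2.45%, 2.78% and 3.92% rising. The median of all genes then moved to -0.32, -0.32 and -0.18, and the members' median lay below it by 0.33, 0.41 and 0.31. With the replicate number as a block, 3 members rose in PM cells at 1 h (Mrpl54, 0.42 ± 0.12, Mrps30, 0.32 ± 0.12, and Mrpl30, 0.30 ± 0.11), beside 13.3% of all genes.

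The fall of largest size in het cells at 1 h was that of Mrpl34, a large subunit protein with a bacterial counterpart. Its log2 signals at 1 h were 7.46, 7.75, 7.46 and 7.53 in PM cells, against 8.66, 8.40, 8.42 and 8.13 at 0 h. In KO cells they were 6.93, 7.71, 7.28 and 7.70 at 1 h, against 8.48, 8.08, 8.50 and 8.33 at 0 h. The het arrays gave 6.89, 7.49, 7.18 and 7.35 at 1 h, against 8.67, 8.28, 8.22 and 8.58 at 0 h. In each genotype all 4 arrays of 1 h lay below all 4 of 0 h. The change was -0.85 ± 0.17 in PM (adjusted p = 0.000453, limma), -0.94 ± 0.17 in KO (adjusted p = 0.000105) and -1.21 ± 0.17 in het cells (adjusted p = 2.61e-06), a 2.31-fold lower signal in the last.

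Mrps17 and Mrps31, a small subunit protein with a bacterial counterpart and one found in mitochondria only, fell at 1 h but not at 4 h. Mrps17 was at 9.26, 9.29, 9.03 and 9.42 in PM cells at 1 h, against 9.93, 10.11, 9.83 and 10.20 at 0 h. In KO cells it was at 9.27, 9.20, 9.18 and 9.34 at 1 h, against 10.16, 10.16, 10.11 and 9.93 at 0 h. The spread within each group of 4 was small beside the distance between the groups, which did not overlap. In het cells Mrps17 was at 10.08, 10.25, 10.06 and 10.13 at 0 h, at 9.20, 9.33, 9.15 and 9.25 at 1 h and at 10.41, 10.48, 10.43 and 10.64 at 4 h. The 1 h change was -0.77 in PM, -0.84 in KO and -0.90 in het cells, each ± 0.10, with limma's adjusted p = 6.11e-07, 9.45e-08 and 2.47e-08 in that order. At 4 h Mrps17 rose by 0.37 in PM, 0.30 in KO and 0.36 in het cells over 0 h.

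Mrps31 had 1 h signals of 7.80, 7.86, 7.82 and 7.82 in het cells, against 8.81, 8.68, 8.57 and 8.67 at 0 h. These 4 values of 1 h differ by no more than 0.06, and the groups did not overlap. The 1 h change was -0.81 in PM, -0.78 in KO and -0.86 in het cells, each ± 0.11 (limma's adjusted p = 1.43e-06, 2.22e-06 and 3.72e-07). At 4 h it rose by 0.29 ± 0.11 in PM and by 0.43 ± 0.11 in het cells over 0 h, and in KO cells the difference was 0.19 ± 0.11 (adjusted p = 0.173, limma).

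Mrpl58, a peptidyl-tRNA hydrolase that is built into the large subunit and frees stalled chains, had 1 h signals of 6.72, 6.91, 6.79 and 7.25 in het cells, against 7.81, 7.49, 7.71 and 8.18 at 0 h. The het groups did not overlap, and the change was -0.79 ± 0.22 in PM (adjusted p = 0.00874, limma) and -0.88 ± 0.22 in het cells (adjusted p = 0.00306). In KO cells it was -0.57 ± 0.22, with an adjusted p = 0.0552 (limma) that became 0.00392 with the replicate block. The largest 1 h fall in KO cells was that of Mrpl57, a small mitochondria-specific protein of the large subunit, whose change was -0.77 in PM, -1.04 in KO and -0.82 in het cells, each ± 0.18 and each called. Mrpl57 was above the detection limit on 1 of 4 PM, 2 of 4 KO and 2 of 4 het arrays of 1 h, so its fold is compressed. Mrpl22, a large subunit protein with a bacterial counterpart, fell by 0.83 in PM, 0.99 in KO and 0.83 in het cells.

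Few members moved up at 1 h. Mrpl9, a large subunit protein with a bacterial counterpart, was at 10.40, 10.13, 10.14 and 10.43 in het cells at 1 h, against 9.68, 9.73, 9.43 and 9.55 at 0 h. The groups did not overlap, and the change was 0.67 ± 0.24 (adjusted p = 0.0362, limma). It was 0.48 ± 0.24 in PM cells (adjusted p = 0.164) and 0.46 ± 0.24 in KO cells (adjusted p = 0.170), where replicate 4 of 1 h, at 9.07 in PM and 9.42 in KO cells, lay below 3 of the 4 arrays of 0 h. The het call was lost without replicate 1, 3 or 4 of 0 h or replicate 1 or 4 of 1 h, each left out alone (adjusted p between 0.0532 and 0.0926, limma). Mrps7, a small subunit protein with a bacterial counterpart, was at 9.0, 8.56, 8.94 and 8.89 in het cells at 1 h, against 8.53, 8.35, 8.50 and 8.43 at 0 h, a change of 0.40 ± 0.13 (adjusted p = 0.0171, limma) without overlap. Its second probe changed by -0.20 (adjusted p = 0.419, limma), so its direction at 1 h differs between probes. The call was also lost without replicate 2 of 0 h or replicate 1 or 3 of 1 h (adjusted p between 0.0508 and 0.0693, limma). In KO cells the 2 rises were those of Mrps7 (0.44 ± 0.13, adjusted p = 0.00835, limma) and of Mrpl54, a mitochondria-specific large subunit protein (0.58 ± 0.18, adjusted p = 0.0139).

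After 4 h the direction of most members was the opposite. In PM cells 32 of 69 members rose and 3 fell, against 24% of all genes rising and 27.1% falling. In KO cells 34 rose and 3 fell (22.2% and 24% of all genes), and in het cells 38 rose and 4 fell (26.9% and 28.3%). The median change over the members was 0.29 in PM, 0.38 in KO and 0.46 in het cells, and that of all genes was -0.02, -0.01 and 0.00. On single arrays of 4 h the members' median against 0 h was between 0.20 and 0.41 in PM, between 0.25 and 0.54 in KO and between 0.40 and 0.58 in het cells, positive on all 12. With arrays scaled to a common median, 10 rose and 3 fell in PM, 9 rose and 1 fell in KO and 19 rose and 3 fell in het cells. The same scaling called 11.5%, 8.69% and 14% of all genes up and 18.5%, 14.3% and 21.6% down. In PM cells the share of rises among the called members was 76.9% with it and 91.4% without it. The members' median then stood above that of all genes by 0.34 in PM, 0.37 in KO and 0.60 in het cells. The replicate block raised the falls in het cells to 7, beside 32.1% of all genes falling. The plot of cumulative changes shows both shifts.

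**Figure D2:**
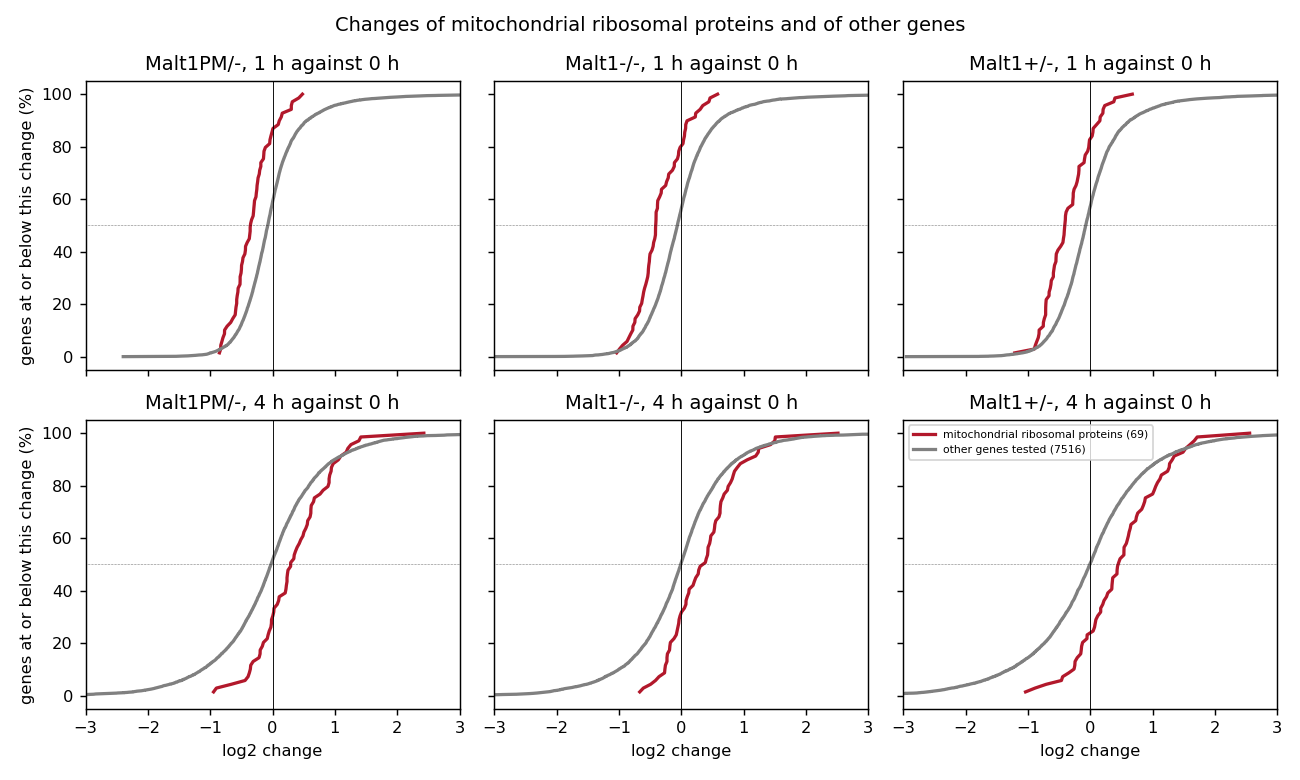
Cumulative share of genes, in percent, against their log2 change, for the 69 mitochondrial ribosomal protein genes (red) and the 7516 other genes tested (grey), at 1 h (top) and 4 h (bottom) against 0 h in each genotype. The horizontal axis ends at 3 in either direction. The red line lies left of the grey one at 1 h, crossing the 50% line at about -0.35 to -0.41, and right of it at 4 h over most of its length.

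Mrps6, a small subunit protein with a bacterial counterpart, had the largest rise of all members in every genotype. Its log2 signals at 4 h were 9.89, 10.49, 10.53 and 10.23 in PM cells, against 7.72, 8.04, 7.61 and 8.07 at 0 h. In KO cells they were 10.46, 10.30, 10.22 and 10.48 at 4 h, against 7.44, 8.18, 8.03 and 7.76 at 0 h. The het arrays gave 9.89, 10.65, 10.26 and 10.11 at 4 h, against 7.57, 7.40, 7.83 and 7.88 at 0 h. No array of 4 h came near one of 0 h. The signal was 5.38-fold higher in PM (log2 change 2.43 ± 0.17, adjusted p = 3.37e-13, limma), 5.70-fold in KO (2.51 ± 0.17, adjusted p = 1.99e-13) and 5.88-fold in het cells (2.56 ± 0.17, adjusted p = 5.16e-14). At 1 h it had not moved beyond its spread, with changes of -0.19 in PM, 0.05 in KO and 0.05 in het cells (adjusted p between 0.496 and 0.877, limma).

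Mrpl12 is the counterpart of the bacterial L7/L12 stalk protein and is also known to bind the mitochondrial RNA polymerase. At 4 h it was at 9.97, 10.34, 10.42 and 10.36 in PM cells, against 8.77, 8.86, 8.87 and 9.05 at 0 h. In KO cells it was at 10.17, 10.29, 10.37 and 10.34 at 4 h, against 8.64, 8.56, 9.09 and 8.87 at 0 h. The het arrays gave 10.55, 10.44, 10.60 and 10.68 at 4 h, against 9.23, 8.81, 8.51 and 8.86 at 0 h. Each group of 4 h lay wholly above its group of 0 h. The rise was 1.39 ± 0.14 in PM (2.61-fold, adjusted p = 3.22e-10, limma), 1.5 ± 0.14 in KO (2.83-fold, adjusted p = 8.45e-11) and 1.72 ± 0.14 in het cells (3.28-fold, adjusted p = 1.86e-12).

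Mrpl17, a large subunit protein with a bacterial counterpart, was at 10.42, 10.32, 10.48 and 10.73 in het cells at 4 h, against 8.83, 8.58, 8.78 and 9.09 at 0 h. Its rise was 1.42 ± 0.17 in PM, 1.51 ± 0.17 in KO and 1.67 ± 0.17 in het cells (3.18-fold, adjusted p = 4.25e-10, limma). Mrps10, a small subunit protein with a bacterial counterpart, was at 8.10, 7.74, 8.24 and 8.39 in het cells at 4 h, against 6.37, 6.41, 6.60 and 6.68 at 0 h. It rose by 1.26 ± 0.15 in PM, 1.43 ± 0.15 in KO and 1.6 ± 0.15 in het cells (3.03-fold, adjusted p = 1.37e-10, limma). For both genes the 4 h and 0 h arrays did not overlap in any genotype.

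Mrps2, also of the small subunit with a bacterial counterpart, was among the dimmer members, at 6.72, 7.09, 6.75 and 7.37 in het cells at 4 h, against 5.16, 5.87, 5.63 and 5.14 at 0 h. It rose by 0.97 ± 0.19 in PM, 1.19 ± 0.19 in KO and 1.53 ± 0.19 in het cells (2.89-fold, adjusted p = 2.95e-08, limma), again without overlap. Mrpl20, a large subunit protein with a bacterial counterpart, varied more between arrays, with 8.05, 8.56, 8.48 and 9.26 in het cells at 4 h, against 6.55, 6.93, 7.22 and 7.70 at 0 h. Replicate 4 was the highest het array at both times. Its rise was 0.92 ± 0.26 in PM, where the groups overlapped, 1.06 ± 0.26 in KO and 1.49 ± 0.26 in het cells (adjusted p = 0.00352, 0.00111 and 1.05e-05, limma).

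Mrps7 was at 9.70, 9.98, 9.74 and 9.79 in het cells at 4 h, against 8.53, 8.35, 8.50 and 8.43 at 0 h. It rose by 1.10 ± 0.13 in PM, 1.23 ± 0.13 in KO and 1.35 ± 0.13 in het cells (2.55-fold, adjusted p = 9.34e-11, limma), and here its second probe rose as well (0.73, 0.70 and 1.11). Mrpl50, a mitochondria-specific protein of the large subunit, was at 8.53, 9.28, 8.80 and 8.78 in het cells at 4 h, against 7.73, 7.86, 7.37 and 7.17 at 0 h. It rose by 1.06 ± 0.20 in PM, 0.90 ± 0.20 in KO and 1.31 ± 0.20 in het cells (2.49-fold, adjusted p = 8.07e-07, limma). For both genes the arrays of 4 h lay above those of 0 h in each genotype.

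**Figure D3:**
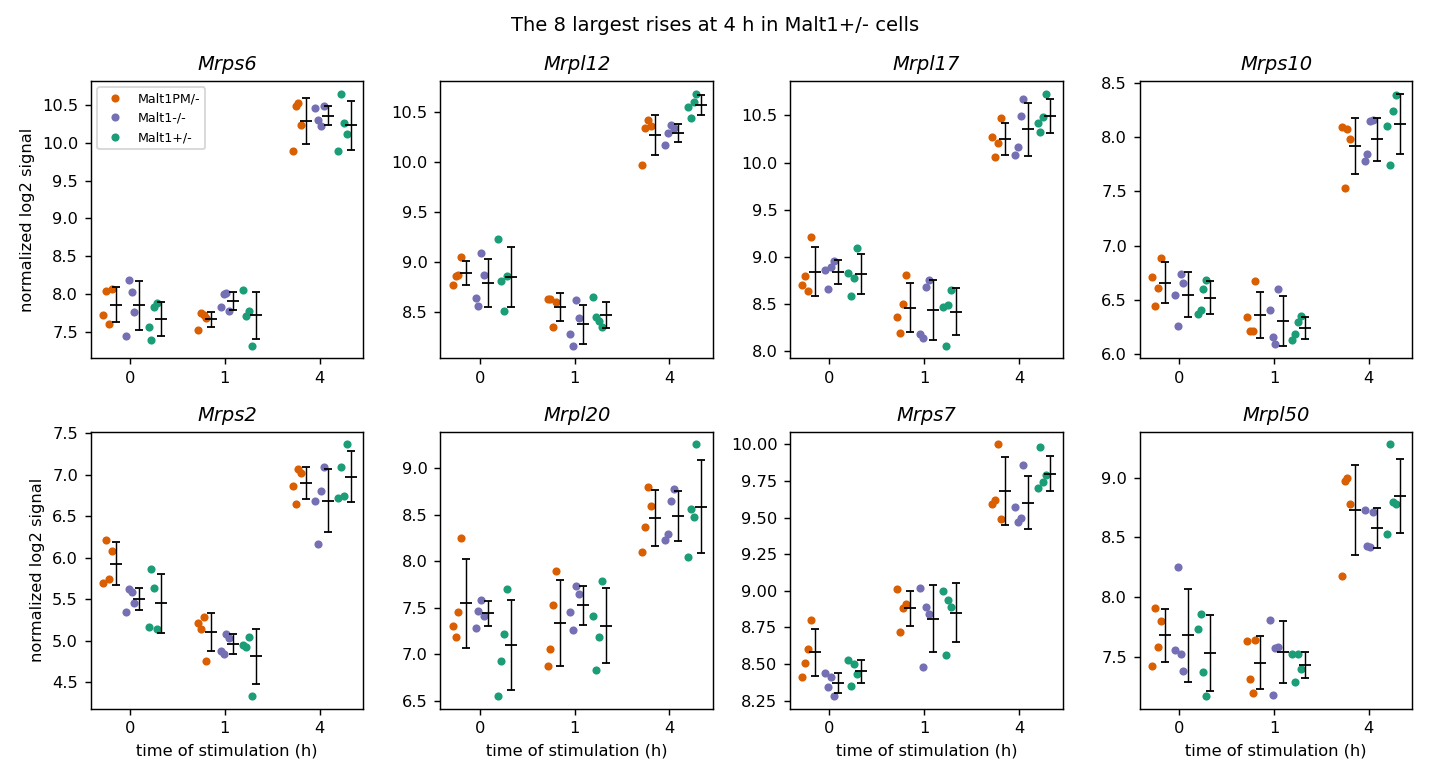
Normalized log2 signal on each array (points) of the 8 members with the largest rise at 4 h in Malt1+/- cells, against hours of stimulation, with the mean and SD of each group of 4 (black). Within each time the genotypes stand side by side, Malt1PM/-, Malt1-/- and Malt1+/- from the left. The 4 h points of Mrps6 lie between 9.89 and 10.65 and all others between 7.32 and 8.18.

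The members that fell at 4 h were few, and 4 met the threshold without overlap in het cells. Mrpl58 was at 7.0, 6.16, 6.76 and 7.13 in het cells at 4 h, against 7.81, 7.49, 7.71 and 8.18 at 0 h. The change was -0.95 ± 0.22 in PM (adjusted p = 0.000646, limma), -0.67 ± 0.22 in KO (adjusted p = 0.0144, with overlap of 1 array) and -1.04 ± 0.22 in het cells (adjusted p = 0.000194), a 2.05-fold lower signal in the last. Mrpl34 was at 7.76, 7.32, 7.28 and 7.85 in het cells at 4 h, against 8.67, 8.28, 8.22 and 8.58 at 0 h. It fell by 0.90 ± 0.17 in PM, 0.61 ± 0.17 in KO and 0.89 ± 0.17 in het cells, and in none of the 3 did the groups overlap.

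Mrps16, a small subunit protein with a bacterial counterpart, was at 8.40, 7.96, 8.14 and 8.38 in het cells at 4 h, against 9.04, 8.89, 8.75 and 9.02 at 0 h. The change was -0.66 ± 0.17 in PM (adjusted p = 0.00158, limma), -0.27 ± 0.17 in KO (adjusted p = 0.208) and -0.71 ± 0.17 in het cells (adjusted p = 0.000726). Mrpl18, a large subunit protein that is also known to carry 5S ribosomal RNA into mitochondria in human cells, was at 6.99, 7.05, 6.87 and 6.94 in het cells at 4 h, against 7.86, 7.47, 7.16 and 7.14 at 0 h. Its change was -0.35 in PM, -0.36 in KO and -0.44 in het cells, each ± 0.19, and only the last was called (adjusted p = 0.0475, limma). That call was lost without replicate 1 or 2 of 0 h or any 1 array of 4 h (adjusted p between 0.0559 and 0.218, limma). The third fall in KO cells was that of Mrpl57 (-0.49 ± 0.18, adjusted p = 0.0261, limma), against 0.20 in PM and 0.09 in het cells.

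**Figure D4:**
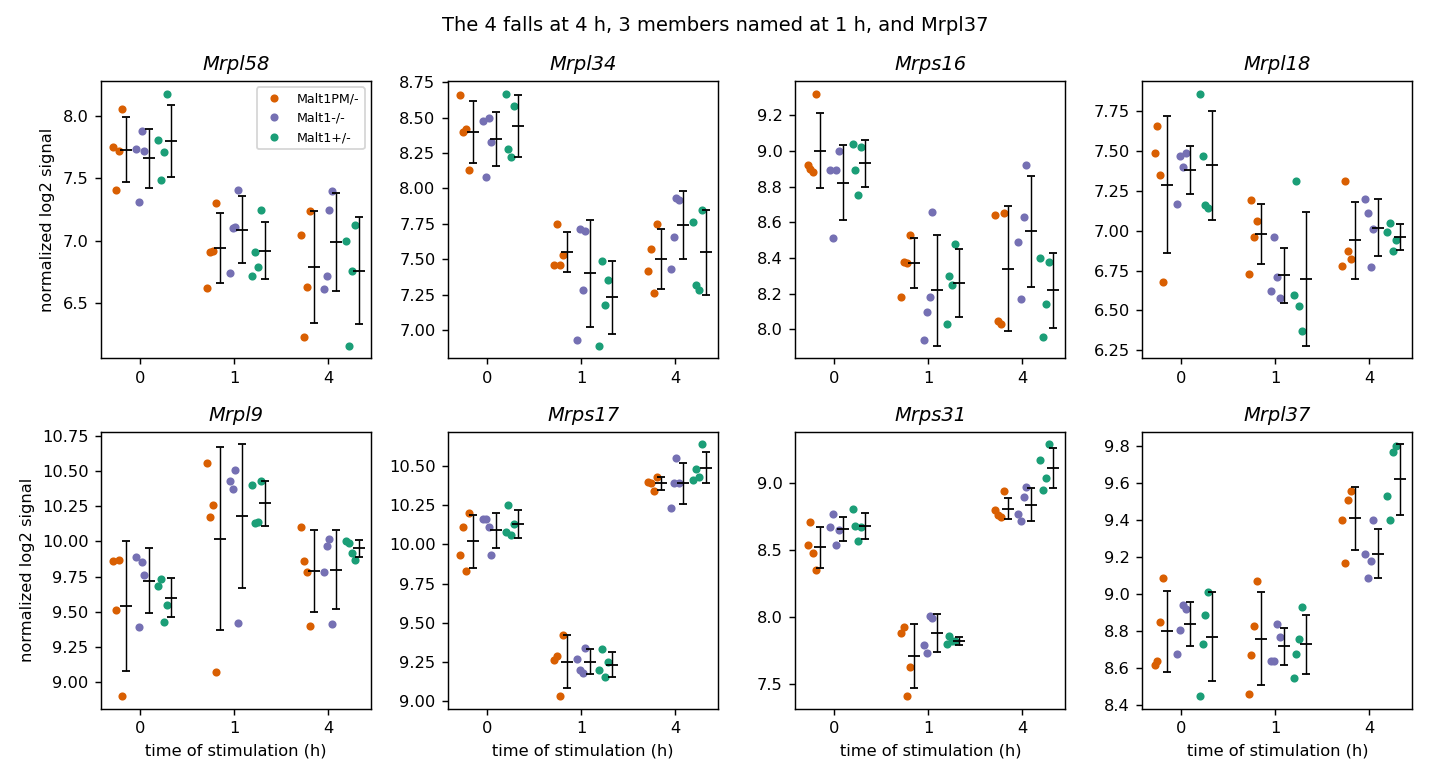
Normalized log2 signal on each array (points), with the mean and SD of each group of 4 (black), of the 4 members that fell at 4 h in Malt1+/- cells (top), of 3 members named for 1 h and of Mrpl37 (bottom), against hours of stimulation. Within each time the genotypes stand from the left as Malt1PM/-, Malt1-/- and Malt1+/-. Mrps17 and Mrps31 dip at 1 h on all 12 arrays, and Mrpl37 at 4 h lies lowest in Malt1-/- cells, between 9.09 and 9.40.

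Set against 1 h, the 4 h levels were higher for most members. In PM cells 48 of 69 members were higher at 4 h than at 1 h and 1 was lower, beside 23.6% and 24.2% of all genes. In KO cells 47 were higher and 1 lower (22.4% and 22.1% of all genes), and in het cells 51 were higher and 0 lower (25.7% and 27%). The median difference was 0.61 in PM, 0.69 in KO and 0.88 in het cells, that of all genes -0.02, -0.01 and -0.02. With arrays scaled to a common median, 36, 34 and 37 members were higher and 0 lower in PM, KO and het cells, beside 15.7%, 12.7% and 15.3% of all genes higher and 8.87%, 7.07% and 15.8% lower. The member that was lower at 4 h than at 1 h in PM and KO cells was Mrpl4, a large subunit protein with a bacterial counterpart. It was at 7.21, 6.93, 6.95 and 7.11 in PM cells at 4 h, against 8.0, 7.61, 7.68 and 7.04 at 1 h, and at 7.15, 7.23, 7.21 and 7.11 in KO cells at 4 h, against 7.59, 7.80, 7.71 and 7.53 at 1 h. The PM groups overlapped through replicate 4 and the KO groups did not overlap. The difference was -0.53 ± 0.18 in PM (adjusted p = 0.0126, limma), -0.49 ± 0.18 in KO (adjusted p = 0.0241) and -0.30 ± 0.18 in het cells (adjusted p = 0.153).

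Called members were found in both subunits. Of all genes tested, 13.1% fell at 1 h in PM, 15.7% in KO and 15.5% in het cells, and 24%, 22.2% and 26.9% rose at 4 h. Of the 42 genes named Mrpl, 15 fell at 1 h in PM, 22 in KO and 23 in het cells, and 20, 21 and 23 rose at 4 h. Of the 27 genes named Mrps, 11, 12 and 10 fell at 1 h and 12, 13 and 15 rose at 4 h, in the same order of genotypes. Mrps18a and Mrps30 are counted here by name, although their proteins sit in the large subunit. The median 4 h change was 0.32 in PM, 0.41 in KO and 0.54 in het cells for Mrpl genes, and 0.29, 0.28 and 0.43 for Mrps genes. A further split used only the number in the gene name and was not checked protein by protein. Single genes, Mrps24 and Mrps28 among them, may thus be misplaced, and the labels of single members follow the same rule. Of 40 members numbered as having a bacterial counterpart, 20 rose at 4 h in PM, 21 in KO and 22 in het cells. Of 29 numbered as mitochondria-specific, 12, 13 and 16 rose. The classes were not tested against each other. Of 19 members with more than 1 kept probe, the probes gave the same call for 14 in PM, 11 in KO and 13 in het cells at 1 h and for 12, 16 and 14 at 4 h, and 0 had opposite calls.

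The part of other cells in these changes was not tested, and their markers moved with time. In bulk samples fewer cells of a type and less RNA per cell cannot be told apart. The summed signal of 10 tested myeloid and dendritic cell markers (of 15 on the array) was 268 to 1180 at 4 h in PM, 401 to 1320 in KO and 293 to 1160 in het cells, against 2710 to 6050, 4960 to 7010 and 5520 to 6190 at 0 h. At 1 h it was 1160 to 3740, 1380 to 3250 and 1950 to 3380. The sum of 8 B cell markers (of 11) was 243 to 989, 172 to 958 and 216 to 721 at 4 h, against 806 to 2730, 768 to 1950 and 1030 to 2720 at 0 h. The sum of the 9 T cell defining genes was 16200 to 18800, 21700 to 23500 and 14600 to 17600 at 4 h, against 21400 to 23200, 22700 to 23700 and 20800 to 25500 at 0 h. For the 3 tested NK cell markers (of 7) it was 153 to 217, 243 to 330 and 126 to 159 at 4 h, against 654 to 2040, 825 to 1920 and 908 to 2570 at 0 h. Cd79a, Cd79b, Fcer2a and H2-Ob (B cells) and Prf1 and Klrd1 (NK cells) were detected on all 36 arrays, and Blk (B cells) on 35. Pax5 and Ebf1 (B cells), Ncr1, Klrb1c, Gzma and Klrk1 (NK cells), and Hbb-b2, Alas2 and Klf1 (erythroid cells) were detected on 0 arrays. So were Itgam, Itgax, Mpo and Clec4a2 (myeloid and dendritic cells) and Prdm1, Jchain and Tnfrsf17 (plasma cells). Sdc1 (plasma cells) and Cr2 (B cells) were each detected on 2 arrays, and Adgre1 (myeloid cells) on 3. The remaining erythroid marker, Hba-a1, was detected on 31 arrays, with linear signals of 7.95 to 143 at 4 h in PM, 7.85 to 244 in KO and 3.56 to 89.2 in het cells, against 18 to 474, 27.7 to 1020 and 40.1 to 749 at 0 h. The 2 tested plasma cell markers (of 6), Xbp1 and Mzb1, went the other way. Their sum was 562 to 839, 620 to 703 and 567 to 985 at 0 h. At 1 h it was 1210 to 1780, 1440 to 2160 and 1440 to 1990, and at 4 h 877 to 1070, 1410 to 1490 and 924 to 1110.

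The targeted gene was measured first among the comparisons of genotypes. Malt1 was lower in KO than in het cells by 1.29, 2.08 and 1.47 on the log2 scale at 0, 1 and 4 h (adjusted p = 0.00725, 1.55e-06 and 3.55e-05, limma). In KO cells it was detected on 2 of 4 arrays at 0 h, on 0 at 1 h and on all 4 at 4 h, where it was at 5.49, 6.24, 5.70 and 5.84, against 6.96, 7.56, 7.43 and 7.21 in het cells. At 4 h against 0 h the Malt1 signal rose by 0.88 in PM, 1.03 in KO and 1.21 in het cells (adjusted p = 0.00153, 0.000349 and 2.99e-05, limma), in the cells labelled Malt1-/- too. The PM difference from het was -0.86 at 0 h (adjusted p = 0.191), -1.13 at 1 h (0.0184) and -1.20 at 4 h (0.00136). Whether the Malt1 probe falls inside the deleted part was not examined here. Detected probes per array ranged from 7713 to 10291 with means of 8903, 9680, 8962 and 8219 for replicates 1, 2, 3 and 4, and arrays of 1 group correlated at 0.911 to 0.988. The number of arrays limits the precision of every value.

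No member was called between genotypes at any time by the test without a replicate block. The count was 0 of 69 for PM against het, KO against het and PM against KO at 0 h, beside 0.0791%, 0.0527% and 0.0659% of all genes. It was 0 for the same pairs at 1 h (0.211%, 0.0527% and 0.0132% of all genes) and at 4 h (2.83%, 8.74% and 2.81%). At an unadjusted p under 0.05 there were 2, 0 and 2 members at 0 h, 3, 1 and 0 at 1 h, and 3, 9 and 0 at 4 h. Of all genes, 3.57%, 1.53% and 3.27% passed that unadjusted threshold at 0 h, 4.40%, 2.27% and 4.38% at 1 h, and 10.5%, 20.8% and 10.8% at 4 h. The 95% interval of a difference reached a median of 0.34 to 0.35 to either side, and smaller differences were not detectable for most members with 4 arrays a group. These intervals are not adjusted for the number of genes, so a call needed a larger difference still. For PM against het at 4 h the whole interval lay within a 2-fold change for 67 of 69 members, for KO against het for 66 and for PM against KO for 68.

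At 4 h the members' median difference from het was -0.10 in PM cells (14 above 0 and 55 below) and -0.12 in KO cells (21 above and 48 below), beside -0.01 and 0.01 for all genes. Both use the same het arrays. With a common median of the arrays the members' median was -0.10 in PM and -0.29 in KO cells, with all genes at 0.01 and -0.05. The smallest adjusted p of any member between genotypes was that of Mrpl15 in KO against het cells, a large subunit protein with a bacterial counterpart. It was at 5.73, 5.78, 5.05 and 5.94 in KO cells at 4 h, against 6.02, 6.39, 6.20 and 6.57 in het cells. The groups did not overlap, and the difference was -0.67 ± 0.22 (95% interval -1.12 to -0.22, adjusted p = 0.0520, limma).

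Mrpl37, a mitochondria-specific large subunit protein, was at 9.22, 9.09, 9.18 and 9.40 in KO cells at 4 h, against 9.53, 9.40, 9.77 and 9.8 in het cells. The lowest het array equalled the highest KO array to 2 decimals, and the other arrays were apart. The PM arrays of 4 h, at 9.40, 9.17, 9.51 and 9.56, overlapped both. The KO difference from het was -0.40 ± 0.14 (95% interval -0.68 to -0.12, adjusted p = 0.0641, limma), and that of PM -0.21 ± 0.14 (-0.49 to 0.07, adjusted p = 0.719). At 0 h and 1 h the 3 genotypes had means between 8.72 and 8.84.

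The replicate numbers paired the arrays in the comparisons with het at 4 h, and with the number as a block more genes were called, 15.2% of all genes for KO against het and 4.76% for PM against het. Among the members, 6 of 69 were then called for KO against het. Mrpl37 (-0.40 ± 0.09, adjusted p = 0.00253, limma), Mrpl15 (-0.67 ± 0.21, 0.0249), Mrpl38 (-0.40 ± 0.13, 0.0294) and Mrpl30 (-0.33 ± 0.11, 0.0451) were lower in KO cells. Mrpl14 (0.52 ± 0.12, 0.00359) and Mrpl52 (0.55 ± 0.17, 0.0306) were higher. The share of 6 in 69 is below that of all genes called with the block.

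Mrpl14, a large subunit protein with a bacterial counterpart, was also the 1 member called for PM against het with the block (0.53 ± 0.12, adjusted p = 0.00764, limma). It was at 8.32, 7.96, 8.28 and 8.72 in PM cells and at 8.14, 7.89, 8.43 and 8.80 in KO cells at 4 h, against 7.57, 7.53, 7.76 and 8.30 in het cells. The groups overlapped, and replicate 4 was the highest of each group. Replicate by replicate, the PM and the KO array lay above the het array of the same number in all 4. Without the block its difference from het was 0.53 ± 0.23 in PM (adjusted p = 0.378) and 0.52 ± 0.23 in KO (adjusted p = 0.184).

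Mrpl52, a mitochondria-specific large subunit protein, was at 8.50, 8.30, 8.20 and 9.14 in KO cells at 4 h, against 7.73, 8.02, 7.96 and 8.24 in het cells, with overlap through het replicate 4. Mrpl38, a mitochondria-specific large subunit protein, was at 9.43, 9.62, 9.81 and 9.76, against 10.24, 9.65, 10.09 and 10.22. The het array of replicate 2 was the lowest of its group and lay within the KO range. Mrpl30, a large subunit protein with a bacterial counterpart, was at 9.06, 9.27, 9.51 and 9.55, against 9.62, 9.57, 9.54 and 9.97, with overlap at the edges. All 6 members called with the block are Mrpl genes, and they were named after their values were seen.

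The size of the response was compared between genotypes next. No member was called in a difference of 4 h responses, for PM against het, KO against het or PM against KO (0 of 69 each, beside 0.132%, 1.99% and 0.369% of all genes), and 2, 4 and 2 members had an unadjusted p under 0.05, beside 5.60%, 11.1% and 5.31% of all genes. For the 1 h responses 0 members and 0% of all genes were called in each, and 0 members had an unadjusted p under 0.05, beside 0.738%, 0.580% and 0.897% of all genes. The 4 h change of PM cells lay below that of het cells for 56 of 69 members and that of KO cells for 53, with a median difference of -0.14 in both, beside -0.02 and 0.00 for all genes. With a common median of the arrays it was -0.18 in PM and -0.23 in KO cells. The changes followed each other over the 69 genes, with Pearson's r of 0.961 for PM and het, 0.940 for KO and het and 0.922 for PM and KO at 4 h, and of 0.919, 0.930 and 0.897 at 1 h. These correlations are over genes that share the arrays of each genotype, and genes are not independent replicates. The difference of the 4 h responses was -0.13 ± 0.24 in PM and -0.05 ± 0.24 in KO cells for Mrps6, and -0.33 ± 0.19 and -0.22 ± 0.19 for Mrpl12, each against het. The 95% interval for Mrps6 ran from -0.63 to 0.37 in PM and from -0.54 to 0.45 in KO cells.

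**Figure D5:**
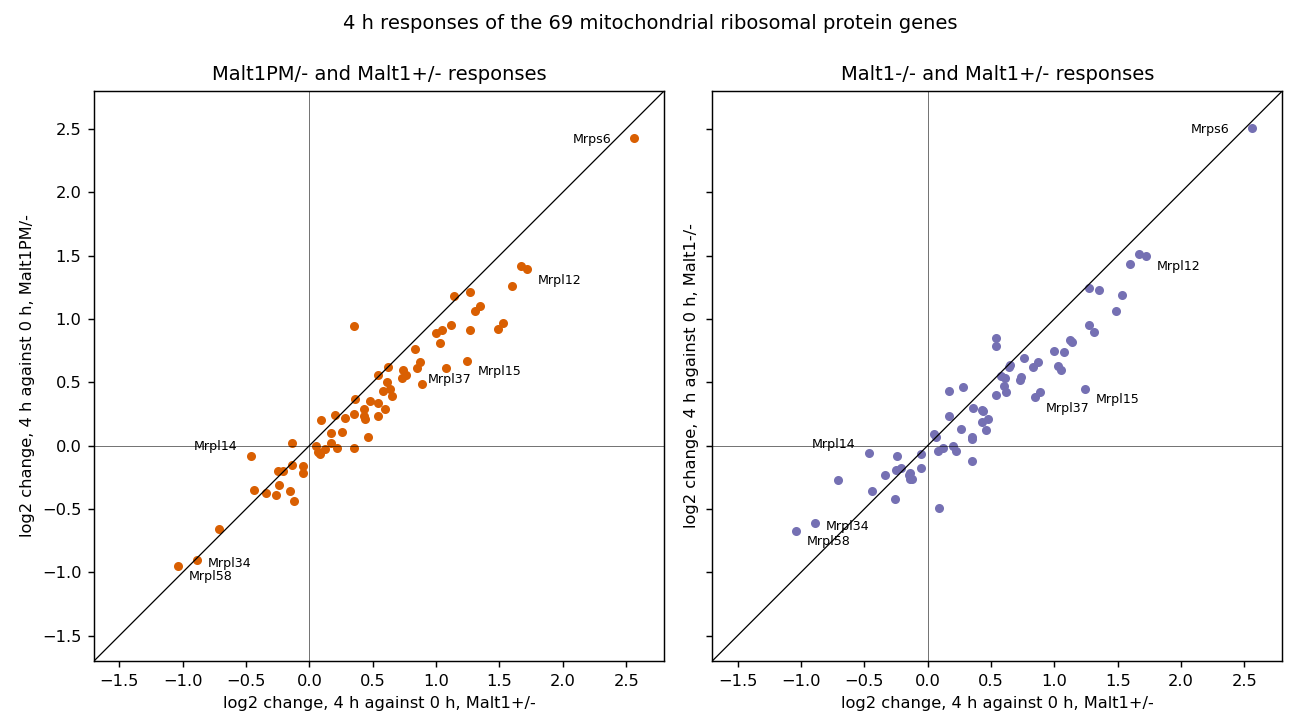
The log2 change at 4 h against 0 h of each of the 69 members in Malt1PM/- cells (left) or Malt1-/- cells (right), against its change in Malt1+/- cells. The diagonal marks equal changes. 56 of 69 points lie below it on the left and 53 on the right, and Mrps6 is the point at the upper right end.

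The other genes of mitochondrial translation were followed in lists chosen by their roles. Of 3 tested mitochondrial ribosomal proteins that the name rule leaves out, Ptcd3, a small subunit protein, rose at 4 h by 0.96 in PM, 0.69 in KO and 1.19 in het cells. Chchd1 rose by 0.37 in PM and 0.37 in het cells and had a change of 0.16 in KO cells (adjusted p = 0.183, limma), and Dap3, also of the small subunit, was not called (-0.23, -0.20 and -0.24). Of 14 translation factors, 7 fell at 1 h in PM, 6 in KO and 7 in het cells and 0 rose. At 4 h, 4 rose and 1 fell in PM, 5 rose and 1 fell in KO, and 8 rose and 3 fell in het cells. Among all genes, 13.1%, 15.7% and 15.5% fell and 10.3%, 12.4% and 12.7% rose at 1 h in PM, KO and het cells. At 4 h 24%, 22.2% and 26.9% of all genes rose and 27.1%, 24% and 28.3% fell. The elongation factors Tufm, Tsfm and Gfm1 rose by 0.59, 0.72 and 0.89 in PM, by 0.47, 0.79 and 0.62 in KO and by 0.66, 1.07 and 1.18 in het cells. The initiation factor Mtif3 fell at both times, by 1.03, 0.95 and 1.18 at 1 h and by 0.46, 0.35 and 0.54 at 4 h in PM, KO and het cells.

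Of 19 factors that assemble the mitochondrial ribosome, 7 fell and 1 rose at 1 h in each genotype. At 4 h, 7 rose and 2 fell in PM, 7 rose and 1 fell in KO, and 7 rose and 2 fell in het cells. Among all genes, 13.1%, 15.7% and 15.5% fell and 10.3%, 12.4% and 12.7% rose at 1 h in PM, KO and het cells. At 4 h 24%, 22.2% and 26.9% of all genes rose and 27.1%, 24% and 28.3% fell. Mrm3, which methylates the large ribosomal RNA, rose by 1.40, 1.54 and 1.85 at 4 h, and Noa1, a GTPase of mitochondrial translation, by 0.67, 0.48 and 1.16 after a 1 h fall by 0.83, 0.96 and 0.96. Mettl17, a factor of the small subunit, fell by 0.68, 0.55 and 0.71 at 4 h. Of 13 genes of mitochondrial DNA and RNA synthesis, 5 rose and 1 fell in PM, 5 rose and 1 fell in KO and 7 rose and 1 fell in het cells at 4 h. The RNA processing enzyme Elac2 rose by 1.72, 1.34 and 1.83 there, and the helicase Supv3l1 by 1.29, 1.30 and 1.42.

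Cytosolic ribosomal proteins, which build the ribosomes outside mitochondria, gave other counts. Of 56 tested, 1 fell and 0 rose at 1 h in each genotype, and at 4 h 4 rose and 6 fell in PM, 5 rose and 7 fell in KO, and 4 rose and 12 fell in het cells. Of 80 genes of the respiratory chain and ATP synthase, 19 fell and 1 rose at 1 h in PM, 20 fell and 0 rose in KO, and 29 fell and 0 rose in het cells. At 4 h 15 rose and 20 fell in PM, 20 rose and 10 fell in KO, and 20 rose and 19 fell in het cells, with medians of -0.04, 0.08 and 0.03. Of all genes, 24%, 22.2% and 26.9% rose and 27.1%, 24% and 28.3% fell at 4 h. At 1 h 10.3%, 12.4% and 12.7% of all genes rose and 13.1%, 15.7% and 15.5% fell. The lists were not tested against the members.

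Of 9 regulators known for nuclear genes of mitochondria, 3 rose at 4 h in each genotype, Myc, Gabpa and Gabpb1. Perm1 and Esrra fell in PM cells (-0.67 and -0.58), Perm1 and Ppargc1b in KO cells (-0.84 and -0.65), and 0 of the 9 in het cells. Among all genes at 4 h, 24%, 22.2% and 26.9% rose and 27.1%, 24% and 28.3% fell in PM, KO and het cells. Myc, a transcription factor of growth genes, was at 8.82, 8.64, 8.71 and 7.16 in PM and at 7.51, 7.63, 7.26 and 7.06 in KO cells at 4 h, against 9.23, 8.81, 9.13 and 8.80 in het cells. All 4 KO arrays lay below all 4 het arrays, and of the PM arrays replicate 4 stood apart from the other 3. Its change from 0 h was 3.05 ± 0.56 in PM, 1.91 ± 0.56 in KO and 3.30 ± 0.56 in het cells. Gabpb1 and Gabpa, the 2 parts of the ETS-type factor GABP, rose already at 1 h, by 2.37, 2.64 and 2.40 and by 0.60, 0.67 and 0.57. Nrf1 was not called at 4 h (-0.12, -0.02 and 0.22).

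Mrps5, a small subunit protein with a bacterial counterpart, was the most variable member. In PM cells its main probe was at 7.68, 8.0, 7.59 and 4.53 at 0 h, at 7.19, 7.99, 6.71 and 4.48 at 1 h and at 8.13, 8.40, 8.05 and 6.99 at 4 h. In KO cells it was at 7.68, 7.85, 7.84 and 7.54 at 0 h, at 7.36, 7.57, 6.97 and 5.53 at 1 h and at 8.04, 8.26, 7.76 and 7.05 at 4 h. Replicate 4 was the lowest array in each of these 6 groups. Its second probe was at 6.64, 6.59, 6.55 and 7.03 in PM cells at 0 h, where replicate 4 was the highest. Without the block no comparison called it. With the block its difference of 4 h from 1 h was called, at 1.30 ± 0.37 in PM (adjusted p = 0.00335, limma) and 0.92 ± 0.37 in KO cells (adjusted p = 0.0356).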

How the data were processed

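RNA of 36 samples was measured on Illumina mouse bead arrays, and the authors deposited a raw intensity and a detection p-value per probe and array, with GenomeStudio 2011.1 named in the submitters' processing notes. A processed intensity table, also deposited, has its upper quartile at 42.64 on every array and ranks probes within an array as the raw table does (lowest Spearman correlation 1). Raw intensities were background-corrected by normexp with an offset of 16, using the detection p-values (nec, limma 3.58.1, statmod 1.5.0, R 4.3.3). They were then quantile-normalized, and the log2 was taken afterwards. Of 25697 probes, 23978 carry 1 gene symbol in the platform annotation and 1719 have none here. Probes detected at p under 0.01 on at least 4 arrays were kept (10961), and each gene was represented by its brightest kept probe.

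limma was fitted to all 36 arrays with 9 group means (27 residual degrees of freedom), with Benjamini-Hochberg adjustment over 7585 genes and a threshold of 0.05. Medians, counts and 95% intervals came from that fit, which was tested on simulated data. Named members are the 8 largest rises and the falls at 4 h, and the largest 1 h changes, among those called in het cells without overlap. Other members named were chosen after their values were seen. The members and gene lists were chosen with earlier results of these data known. Alternatives were median scaling, no background correction, the authors' processed table, other filters and probe rules, array weights, fewer groups or replicates, and a replicate block. Deviations of arrays with the same number correlated at a median of 0.405 (different numbers -0.132), and every pair exceeded 0.1 in 12 of 18 comparisons of groups. The main fit treated no comparison as paired, and the replicate block was tried in all comparisons. No array duplicated another.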

Additional observations from a re-analysis of the deposited data

Results flagged for a closer look

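Among 207 groups of 4 arrays examined for the named members, 6 held 1 array far from the other 3 by Dixon's test, which chance alone gives in about 1 of 20 groups. Mrpl12 was at 8.35 in PM replicate 3 at 1 h, with the others between 8.60 and 8.63. Mrpl9 was at 9.42 in KO replicate 4 at 1 h, with the others between 10.37 and 10.51. Mrps16 was at 9.32 in PM replicate 4 at 0 h, with the others between 8.88 and 8.92. Mrps5 was at 4.53 on the same PM array, with the others between 7.59 and 8.0. Mrpl52 was at 7.13 in het replicate 2 at 0 h, with the others between 7.54 and 7.57. Mrps2 was at 4.33 in het replicate 4 at 1 h, with the others between 4.92 and 5.04.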

How the results depend on the processing

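Of the recomputed counts of called members, 614 stayed within 1.5 times the reported one and 61 did not. For the members named by rule in het cells, at 1 h or 4 h against 0 h, no change turned its sign. Other members, and changes in PM and KO cells or between genotypes, were not followed gene by gene in this way. The members' median was recomputed for each comparison under each setting. It stayed within its spread in 238 of these cases, moved beyond it in 17 and turned its sign in 9. All 9 were between genotypes or responses, where 0 members were called. Under common-median scaling it became -0.04 for KO against het at 0 h, -0.07 for PM and -0.22 for KO against het at 1 h, and -0.16 for PM and -0.18 for KO against het in the 1 h response. For PM against KO it became -0.02 at 0 h and 0.02 in the 4 h response with array weights, and -0.01 and 0.01 with replicates 1 to 3. The cause of these changes was not tested. Scaling to a common median gave 13 falls at 1 h in PM, 14 in KO and 6 in het cells, 0 rises at 1 h in KO and het, 10, 9 and 19 rises at 4 h, 1 fall at 4 h in KO, and 0 members lower at 4 h than at 1 h in PM and KO. Mrps17 (-0.91, adjusted p = 0.0713), Mrps31 (-0.99, 0.0695), Mrpl9 (0.66, 0.428) and Mrps7 (0.3, 0.679, limma) missed the threshold at 1 h in het cells under it. So did Mrpl18 at 4 h (-0.62, adjusted p = 0.32, limma). The Mrpl18 call was also lost in the authors' table, without a filter and with probes tested separately (adjusted p between 0.0517 and 0.0907, limma). That of Mrps7 was lost with the mean of its probes (0.1, adjusted p = 0.641, limma), and that of Mrpl9 without a filter (0.0789).

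Rises at 1 h in PM cells numbered 1 without background correction, in the authors' table, with probes detected on every array and with replicates 1 to 3, and 2 with array weights. Rises at 1 h in het cells numbered 1 without a filter, with the mean of a gene's probes, with only the groups compared and with replicates 1 to 3. In KO cells they were 1 with the mean of probes and 4 with array weights. Falls at 1 h in PM cells were 15 with only the groups compared. Falls at 4 h were 8 in PM and 5 in KO cells with array weights, and 6 in PM cells with replicates 1 to 3. Members lower at 4 h than at 1 h were 0 in PM cells with only the groups compared, and 2 each in PM and KO cells with replicates 1 to 3. For KO against het at 4 h, 3 members were called without background correction, 2 in the authors' table, 6 with array weights, and 1 each with probes detected on every array, the mean of probes and replicates 1 to 3. That comparison called 8.74% of all genes in the main fit and 15.2% with the replicate block. Shares of all genes under the settings of this paragraph are not given here, so these counts are not read as an effect on the members.

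With the replicate block, 7 members fell at 4 h in het and 8 in PM cells, beside 32.1% and 30.8% of all genes. In PM cells 3 rose at 1 h, beside 13.3% of all genes. At 4 h, 6 were called for KO against het and 1 for PM against het, beside 15.2% and 4.76%. For the 4 h response of KO against het 1 was called, Mrpl37 (-0.47 ± 0.13, adjusted p = 0.0309, limma), beside 4.63% of all genes. For PM at 4 h against 0 h and for the responses the numbers share no proven pairing.

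Leaving out 1 array at a time gave 0 to 1 rises and 19 to 25 falls at 1 h in PM, 2 to 3 and 26 to 32 in KO, and 0 to 3 and 28 to 33 in het cells, with 0 rises without het replicate 1 of 1 h and 1 PM rise without PM replicate 4 of 0 h or 1 h. At 4 h it gave 24 to 32 rises and 3 to 6 falls in PM (6 without replicate 4 of 0 h), 27 to 35 and 2 to 4 in KO, and 35 to 39 and 3 to 4 in het cells. Set against 1 h, 44 to 48 members were higher and 0 to 2 lower in PM, 45 to 48 and 0 to 2 in KO, and 48 to 51 and 0 in het cells. The PM count of lower members was 0 without replicate 1 and 2 without replicate 4 of 1 h. The KO count was 0 without replicate 2 or 3 of 1 h or 4 of 4 h, and 2 without replicate 4 of 1 h. For KO against het at 4 h it gave 0 to 2 (2 without het replicate 2), where the fit of all arrays called 8.74% of all genes. It gave 0 for the other comparisons of genotypes and responses. The shares of all genes called in these fits are not given, so the ranges are not read as an effect on the members. Members near background, such as Mrpl57 and Mrps2 at 1 h, have compressed changes.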
